A study of Homo sapiens with 2 samples.

Results

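LSD1 chromatin was read at the RAB GTPase genes of PC-3M-luc cells. The members are the protein-coding genes of GENCODE on hg19 whose symbol is RAB followed by a number and at most a subtype ending, which gave 63 genes of 20163 protein-coding genes. Genes named after RAB proteins that they bind or regulate, such as RAB3GAP1 and RAB11FIP1, are no GTPases and were kept out. PC-3M-luc is a luciferase-marked derivative of the metastatic, androgen-independent prostate carcinoma line PC-3. The series has 2 groups of 1 library each: LSD1 ChIP, in which chromatin was pulled down with an Abcam antibody to LSD1, and Input DNA. Both came from cells with the genotype label Control, at passages 17 to 20, grown in EMEM with 10% FBS and glutamine. Neither RNA nor protein was measured, so the labelled cell type could not be checked against markers.

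RAB proteins are small GTPases that act as switches of membrane traffic. Loaded with GTP they sit on a particular organelle and recruit effectors such as tethers, motors and coats, and after hydrolysis a carrier protein takes them off the membrane. Through these steps they route receptors, integrins and secreted vesicles, which matters for the movement and secretion of carcinoma cells. LSD1 (KDM1A) is a histone demethylase of mono- and dimethylated histone H3 lysine 4.

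The only processed data are the 20110 LSD1 peaks of the authors, each with a position and a score. That score comes from the authors' peak caller, has no unit here and only ranks peaks within this list, where it runs from 50 to 3226 with a median of 206. Read depth is unknown. With 1 library per group no value has a replicate check, no test was possible, and the lack of a called peak at a gene does not show that LSD1 was absent there. A promoter peak overlaps the 1 kb either side of the canonical transcription start site (TSS). Coordinates are 1-based on hg19.

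LSD1 peaks lay at the promoters of 40 of the 63 RAB genes (63.5%), against 11048 of 20100 other protein-coding genes (55%), and the background over all protein-coding genes was 55%. All 40 of these peaks covered the TSS itself, as 97.4% of promoter peaks did over all genes. The shares of RAB genes and other genes with a promoter peak, 63.5% and 55%, differ by 8.53 percentage points. The RAB promoters were also more often CpG-rich, at 45 of 63 (71.4%) against 55.9% of other genes. A promoter was called CpG-rich where, over the 1000 bp centred on the TSS, GC exceeded 55% and the ratio of observed to expected CpGs exceeded 0.65. Within CpG-rich promoters 34 of 45 RAB genes had a peak (75.6%), against 76.9% of the other genes, and 76.9% was also the background. Within CpG-poor promoters 6 of 18 RAB genes had one (33.3%), against 27.1% of other genes, equal to the background of 27.1%. Class by class, the RAB genes thus stood near the background.

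**Figure D1:**
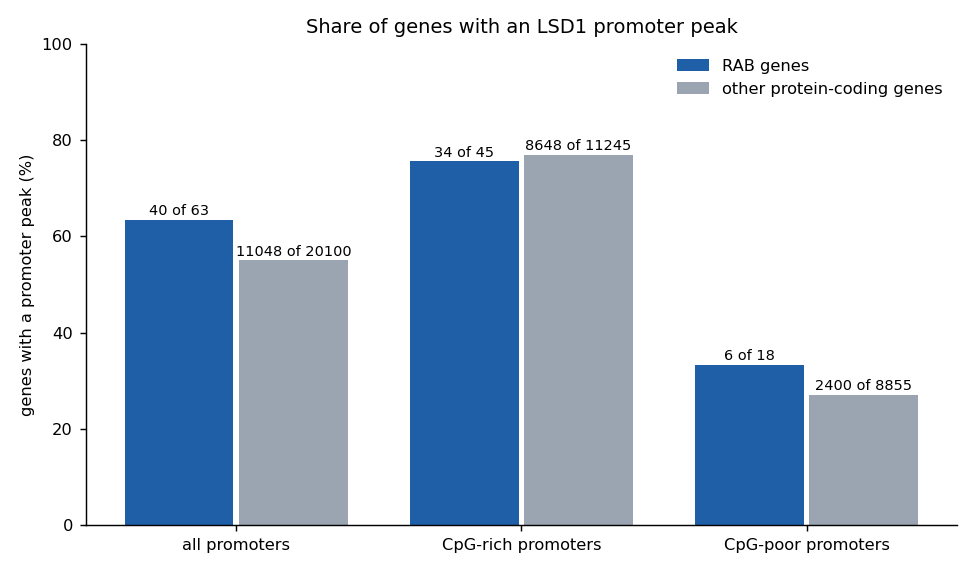
Share of genes with a promoter peak (%, axis from 0) for RAB genes and other protein-coding genes, over all promoters and by CpG class, with the counts above the bars. The RAB share is 63.5% against 55% over all promoters and 75.6% against 76.9% at CpG-rich ones.

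The sequences just before the TSS show the range of promoters in the family. They are the 200 bases before the canonical TSS, read from the hg19 reference 5′ to 3′ on the gene's strand, with each CpG in capitals. RAB10 and RAB6A are CpG-rich with a peak, RAB6B is a CpG-rich paralog without one, RAB30 is CpG-poor with a peak and RAB40A is CpG-poor without one.
RAB10: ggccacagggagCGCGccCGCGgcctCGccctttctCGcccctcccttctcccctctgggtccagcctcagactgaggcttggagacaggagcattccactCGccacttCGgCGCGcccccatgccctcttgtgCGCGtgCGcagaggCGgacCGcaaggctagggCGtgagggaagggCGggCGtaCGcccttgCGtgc
RAB6A: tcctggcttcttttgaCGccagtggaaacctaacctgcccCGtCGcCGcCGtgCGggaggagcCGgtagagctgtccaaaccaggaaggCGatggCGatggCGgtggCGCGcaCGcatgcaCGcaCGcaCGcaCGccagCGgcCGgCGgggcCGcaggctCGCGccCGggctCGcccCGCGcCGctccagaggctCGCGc
RAB6B: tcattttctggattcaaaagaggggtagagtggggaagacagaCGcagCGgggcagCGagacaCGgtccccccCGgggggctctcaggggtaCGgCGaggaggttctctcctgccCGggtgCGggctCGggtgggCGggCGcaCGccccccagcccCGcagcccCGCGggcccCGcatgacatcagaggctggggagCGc
RAB30: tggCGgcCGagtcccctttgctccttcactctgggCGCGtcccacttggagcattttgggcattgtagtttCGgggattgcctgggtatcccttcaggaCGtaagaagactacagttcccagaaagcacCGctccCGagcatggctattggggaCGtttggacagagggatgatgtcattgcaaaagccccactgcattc
RAB40A: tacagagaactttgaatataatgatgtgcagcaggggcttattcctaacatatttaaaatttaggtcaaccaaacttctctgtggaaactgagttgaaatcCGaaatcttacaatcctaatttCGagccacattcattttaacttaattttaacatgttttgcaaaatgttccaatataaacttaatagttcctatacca
These stretches are chr2:26256753-26256952 (plus strand) for RAB10, chr11:73472120-73472319 (minus) for RAB6A, chr3:133614727-133614926 (minus) for RAB6B, chr11:82782940-82783139 (minus) for RAB30 and chrX:102774418-102774617 (minus) for RAB40A. They hold 20 CpGs in RAB10, 30 in RAB6A, 18 in RAB6B, 9 in RAB30 and 2 in RAB40A. RAB10 and RAB6B, with and without a peak, differ by 2 CpGs over this length. GC content was 71% in RAB10, 73.5% in RAB6A, 71.5% in RAB6B, 55.5% in RAB30 and 31% in RAB40A. RAB40A holds 1 match to the TATA box letters TATAAA.

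Over all 63 members, promoters with a peak were richer in GC and CpG than those without. The median GC content was 66.5% (54.3 to 76.3) in the 40 with a peak and 56.5% (31.6 to 75) in the 23 without. The median CpG ratio was 0.794 with a peak and 0.698 without, and the 2 ranges overlapped, from 0.48 to 1.04 and from 0.14 to 0.89. Among other protein-coding genes the medians were 0.795 with a peak and 0.385 without. Within the 45 CpG-rich members the CpG ratio still had a median of 0.815 with a peak and 0.742 without. RAB31, with a GC content of 75% and a CpG ratio of 0.89, and RAB15, with 73.7% and 0.803, were the most GC-rich members without a promoter peak.

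**Figure D2:**
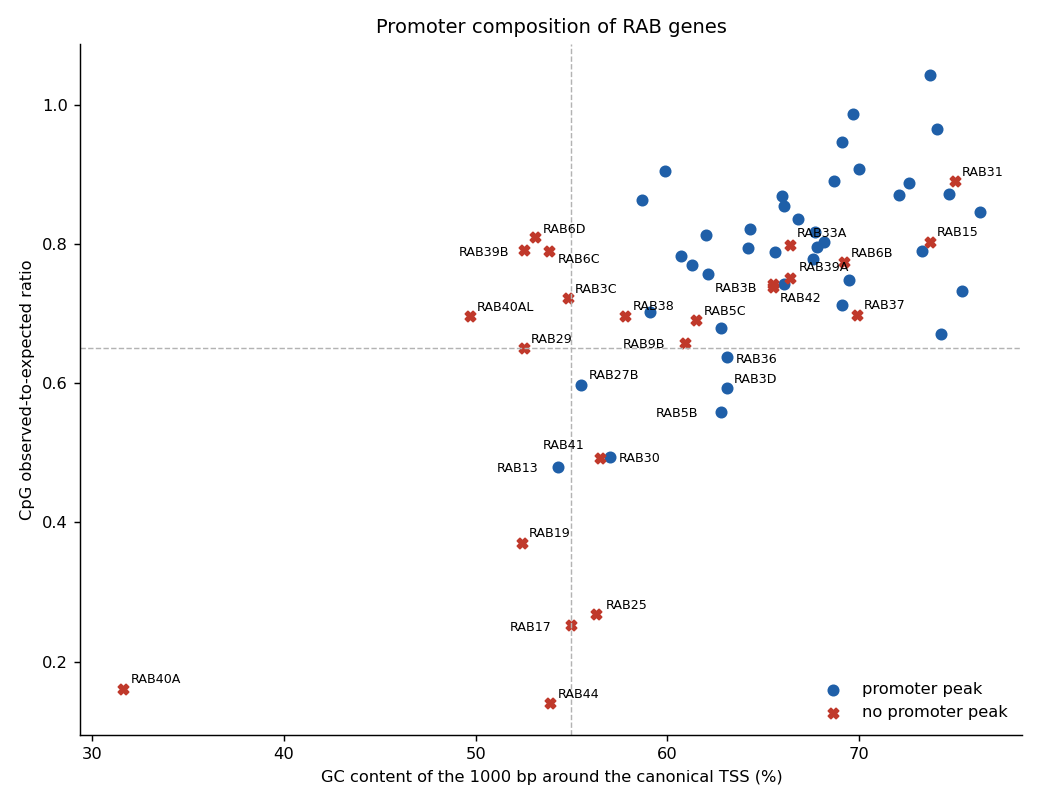
GC content (%) and CpG observed-to-expected ratio of the 1000 bp around the canonical TSS for 63 RAB genes, as circles with a promoter peak and crosses without, with dashed lines at the limits of 55% and 0.65. Peaks fill the upper right, where RAB31, RAB15 and RAB6B stand among them without one, and RAB40A lies alone at 31.6% GC.

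The GC box, the letters GGGCGG to which SP and KLF factors bind, was the commonest of 7 short motifs searched on both strands in the 250 bases before the TSS. It occurred in 37 of 40 RAB promoters with a peak (92.5%), against 74% of all coding promoters with one, and in 13 of 23 RAB promoters without (56.5%), against 39.7% of all coding promoters without one. With both CpG classes pooled, promoters with a peak thus held it more often in the family and over all genes, where the share was 58.6% in all. Among CpG-rich promoters 44 of 45 RAB genes held it (97.8%), against 80.7% over all genes. The exception was RAB6A, which had a peak, so all 11 CpG-rich members without a peak held the GC box. Within this class of the family the box was thus not more frequent with a peak. The ETS letters CCGGAAG stood in 6 of 40 with a peak (15%, against 18.3% of all promoters with one) and in 1 of 23 without (4.35%, against 3.86%). The letters ATGGCGG of the YY1 element stood in 5 of 40 (12.5%, against 4.45%) and in 0 of 23 (against 1.33%). TATAAA was found in 0 of 40 (against 4.56%) and in 3 of 23 (13%, against 15.3%), namely RAB6C, RAB6D and RAB40A. CCAAT occurred in 11 of 40 (27.5%, against 35.3%) and 5 of 23 (21.7%, against 32.7%). The E-box CACGTG occurred in 4 of 40 (10%, against 9.6%) and 1 of 23 (4.35%, against 5.74%), and the AP-1 letters TGANTCA in 1 of 40 (2.5%, against 2.97%) and 2 of 23 (8.7%, against 6.87%). Over all coding promoters the shares were 11.8% for ETS, 3.05% for YY1, 9.4% for TATAAA, 34.1% for CCAAT, 7.86% for the E-box and 4.72% for AP-1. No motif searched contains another, although the letters of the GC box and ATGGCGG can share bases. A match is a match of letters and no measure of binding.

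Scores of RAB promoter peaks spread over much of the range of the list. The 40 peaks had a median score of 361 (88.3 to 3100), against 465 (50 to 3226) for the best promoter peak of other genes. Scores of 231, 465 and 840 divide the promoter peaks of all genes into 4 equal groups, and from low to high these held 10, 13, 7 and 10 of the RAB peaks. CpG-rich members had a median score of 389 and CpG-poor members of 237, against 495 and 355 among other genes of those classes. Median width was 2028.5 bp (811 to 9202) against 1955 bp in other genes. The peak midpoint lay downstream of the TSS in 23 of the 40 (57.5%), against 58% over all genes. It lay within 500 bp of the TSS in 31, a count not made over all genes. The quartiles of its position were -117.5 and 329.5 bp from the TSS (negative upstream), against -160 and 309 bp in other genes.

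**Figure D3:**
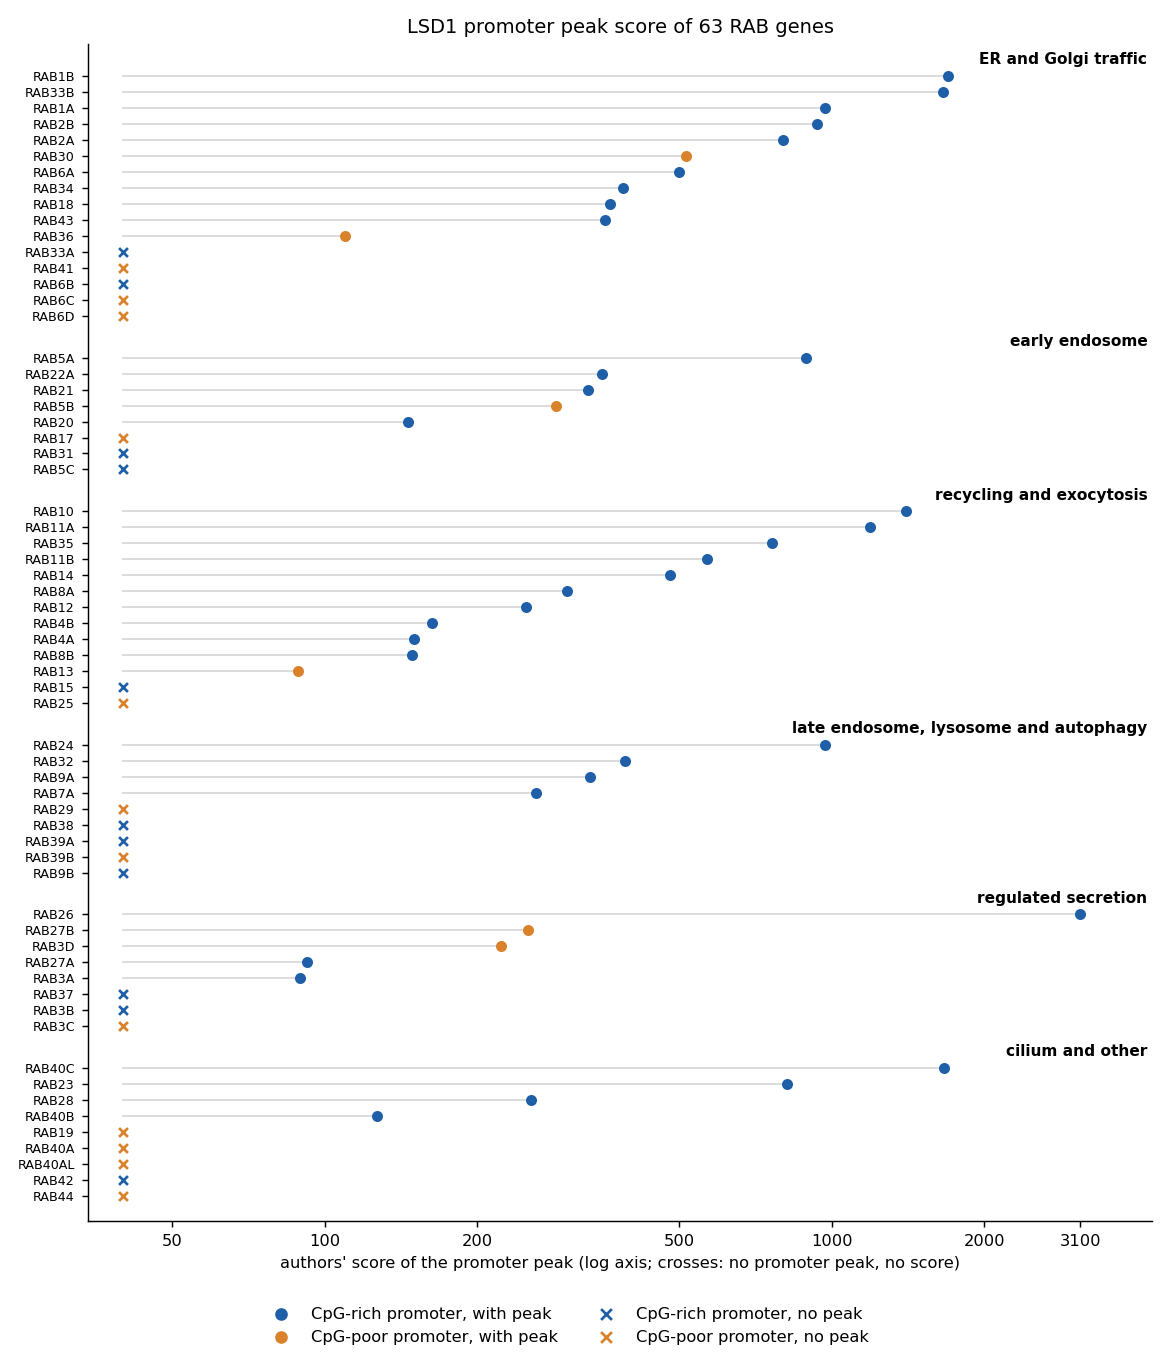
The authors' score of the promoter peak (log axis) for each of the 63 RAB genes, grouped by the traffic step of the protein, with crosses at the left for members without a promoter peak and colour for CpG class. RAB26 stands highest at 3100, and RAB13, RAB3A and RAB27A lowest at about 88 to 92.

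The early secretory pathway held 2 of the 4 highest scores. Of 16 genes of ER and Golgi traffic 11 had a promoter peak (68.8%), against 55% over all genes, and 9 of the 11 with CpG-rich promoters had one, against 76.9% over all CpG-rich promoters. Their median score was 515. RAB1B, which with RAB1A drives transport between the ER and the Golgi, had a 3659 bp peak with a score of 1699 (chr11:66033691-66037349). RAB1A scored 969 (chr2:65356320-65358477). RAB33B, a Golgi GTPase that also binds the autophagy protein ATG16L1, had a score of 1662 (chr4:140373583-140375855), higher than 92.2% of promoter peaks over all genes. RAB2B and RAB2A, which act in traffic between the Golgi and the ER, scored 935 and 801, and the RAB2B peak also covered a TSS of TOX4. RAB6A, of retrograde transport within the Golgi, scored 499 (chr11:73470877-73472996). The remaining members with a peak were RAB30 (515), RAB34 (387), RAB18 of lipid droplets and the ER (365), RAB43 (358) and RAB36 (110). RAB6B, RAB6C, RAB6D, RAB33A and RAB41 had none.

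Genes of recycling and exocytosis had a peak at 11 of 13 members (84.6%, against 55% over all genes), with a median score of 300. Of these 13 genes 11 had CpG-rich promoters, 10 of them with a peak, against 76.9% over all CpG-rich promoters. RAB10, which sends vesicles to the plasma membrane, scored 1401 (chr2:26255877-26258099), and RAB11A, the GTPase of the recycling endosome, scored 1191 (chr15:66160916-66163691). RAB11B, its close relative, scored 568, RAB35 of fast recycling 762 and RAB14 481. RAB8A, of exocytosis and cilium growth, scored 300, RAB12 249, RAB4B 162, RAB4A 150 and RAB8B 149. RAB13, of epithelial junctions, had the lowest score of the family at 88.3, at a CpG-poor promoter. RAB15 and RAB25 had no promoter peak. RAB25, an epithelial relative of RAB11 with a CpG ratio of 0.268, was the nearest miss: a peak lay 1614 bp from its TSS, and the next closest among members without one lay 5214 bp away, at RAB19.

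Among early endosome genes 5 of 8 had a peak (62.5%), near the background of 55%, with a median score of 331. At CpG-rich promoters 4 of 6 of them had one, against 76.9% over all CpG-rich promoters. RAB5A, the GTPase of early endosome fusion, scored 892 and its peak also covered a TSS of EFHB. RAB22A scored 353, RAB21, which binds integrins, 331, RAB5B 286 and RAB20 146. RAB5C, RAB31 and the epithelial RAB17 had none. Late endosome, lysosome and autophagy genes had a peak at 4 of 9 (44.4%, against 55% over all genes). Of these 9 genes 7 had CpG-rich promoters, 4 of them with a peak (76.9% over all CpG-rich promoters), and 3 were on the X chromosome. RAB24, tied to autophagy, had an 8425 bp peak with a score of 969 that also covered a TSS of PRELID1 (chr5:176725163-176733587). RAB32, of melanosomes and lysosome-related organelles, scored 391.7, RAB9A, of transport out of late endosomes, 334, and RAB7A, the main late endosomal GTPase, 261. RAB9B, RAB29, RAB38, RAB39A and RAB39B had none.

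Regulated secretion genes had a peak at 5 of 8 (62.5%), near the background of 55%, with the highest and nearly the lowest scores of the family. At CpG-rich promoters 3 of 5 of them had one, against 76.9% over all CpG-rich promoters. The RAB26 promoter, whose protein marks secretory granules, lay under a 9202 bp peak with a score of 3100 (chr16:2197487-2206688), a value shared or exceeded at 2.08% of all genes with a promoter peak. A score of 3100 was taken here as the ceiling of the list, and peaks sharing it cannot be ranked by it. The RAB26 peak ran from 1139 bp before the RAB26 TSS to 8062 bp after it, and covered a TSS of TRAF7 and the small nucleolar RNA gene SNORD60 as well. The highest point of the signal is not in the list, so the peak cannot be divided among these genes. RAB27B and RAB27A, which release exosomes and secretory granules, scored 251.3 and 92.1, RAB3D 223 and RAB3A, of synaptic vesicles, 89.4. RAB3B, RAB3C and RAB37 had no promoter peak. In the mixed group 4 of 9 had a promoter peak (44.4%, against 55%). At CpG-rich promoters the count was 4 of 5, against 76.9% over all CpG-rich promoters. RAB40C, a GTPase with a SOCS box that joins ubiquitin ligases, scored 1667 with a 5566 bp peak centred 2083 bp upstream (chr16:635201-640766). RAB23 of hedgehog signalling and cilia scored 815, RAB28 254.6 and RAB40B 127. RAB19, RAB40A, RAB40AL, RAB42 and RAB44 had none.

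**Figure D4:**
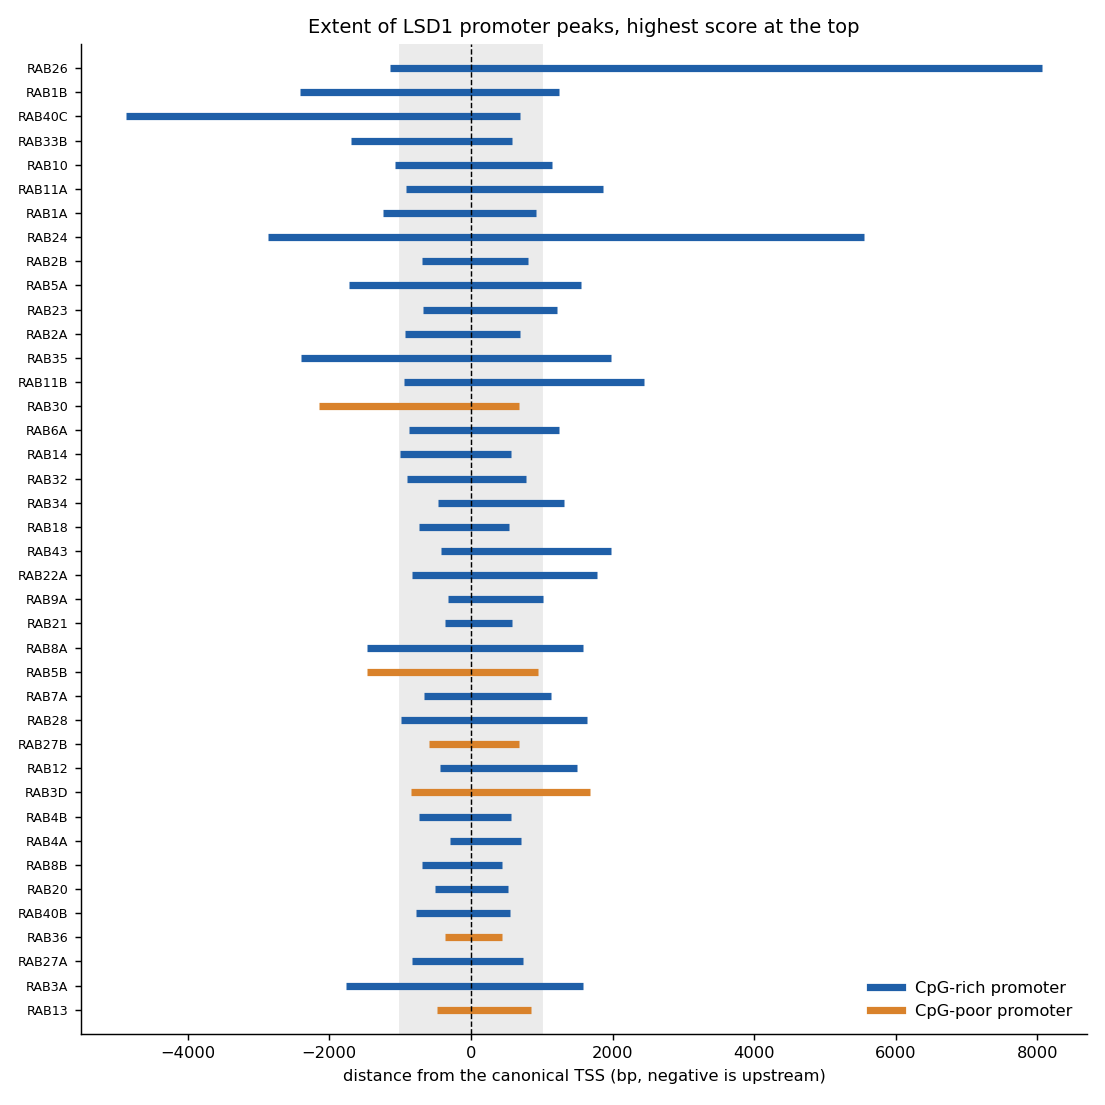
Extent of the promoter peak (bp from the canonical TSS, negative upstream, on the gene's strand) of the 40 RAB genes with one, ordered by score from the top, with the 1 kb window shaded and colour for CpG class. Every bar crosses the TSS, and RAB26, RAB24 and RAB40C stand out at over 5 kb.

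CpG-poor promoters with a peak were those of RAB3D, RAB5B, RAB13, RAB27B, RAB30 and RAB36. Their scores ran from 88.3 to 515, and RAB30 was the highest of them, with its peak centred 731 bp upstream of the TSS. Their CpG ratios ran from 0.48 in RAB13 to 0.637 in RAB36. The 12 CpG-poor members without a peak lay on both sides of that range. RAB44 (0.14), RAB40A (0.161), RAB17 (0.252), RAB25 (0.268) and RAB19 (0.371) were below it and RAB41 (0.492) inside it. RAB29 (0.65), RAB40AL (0.696), RAB3C (0.722), RAB6C (0.79), RAB39B (0.791) and RAB6D (0.81) were above it, and were CpG-poor by their GC content. The promoter peaks of 7 of the 40 members also covered a TSS of another protein-coding gene (17.5%), against 30% of genes with a promoter peak overall. Besides those named, the partners were PMEL at RAB5B, the readthrough gene RAB4B-EGLN2 at RAB4B and a gene known only as ENSG00000285641 at RAB13.

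Paralogs were then set side by side, as a description. Of 13 groups of paralogs with the same number, 6 had a peak at every member (RAB1, RAB2, RAB4, RAB8, RAB11 and RAB27), 1 at none (RAB39) and 6 at some members only. Paralog groups of other genes were not counted, so this split has no background. In the RAB6 group the peak was at RAB6A and not at RAB6B, RAB6C or RAB6D. RAB6B, in humans known from brain, had the CpG-rich promoter shown above, with a CpG ratio of 0.774 against 0.778 in RAB6A. In the RAB9 and RAB33 groups RAB9A and RAB33B had a peak and the X-linked RAB9B and RAB33A did not. RAB3A and RAB3D had one, RAB3B and RAB3C none, RAB40B and RAB40C one, RAB40A and RAB40AL none. Where both members had a peak they could stand at different places in the list. The RAB40C peak scored higher than 92.2% of promoter peaks over all genes and the RAB40B peak higher than 11.7%, and RAB5A stood at 77.6% and RAB5B at 31.7%. Of the 30 members that have a number to themselves, 19 had a peak. The share was 63.5% over the whole family and 55% over all coding genes.

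Of the 7 RAB genes on the X chromosome only RAB9A had a promoter peak (14.3%), against 39 of 56 on autosomes (69.6%). The background was 37.6% over X-linked coding genes and 56% over autosomal ones. Only 3 of the 7 had CpG-rich promoters, of which 1 had a peak, against a background of 67.7% for CpG-rich X-linked promoters. RAB6C, RAB6D, RAB40AL and RAB25, none with a promoter peak, share sequence with other loci. Of the 32-base words in the 1 kb either side of their TSS, 51.5% were unique in the reference for RAB6C, 49.2% for RAB6D, 55.2% for RAB40AL and 62.3% for RAB25. The median was 99.3% (83.7 to 100) in members with a peak and 97.4% (49.2 to 100) in members without. The part of uniqueness in these missing peaks was not tested.

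The 11 CpG-rich members without a promoter peak were RAB3B, RAB5C, RAB6B, RAB9B, RAB15, RAB31, RAB33A, RAB37, RAB38, RAB39A and RAB42. Their nearest peak lay 5324 bp from the TSS at RAB33A, 9421 bp at RAB42, 10869 bp at RAB37 and 13839 bp at RAB15. It lay 104240 bp away at RAB5C and 159861 bp at RAB38, with a median of 41744 bp over the 11, against 77970 bp in 2594 other CpG-rich genes without a peak. Over all 23 members without one the nearest peak was over 100 kb away in 6 (26.1%), against 42% of other such genes. The peak-free stretch around the TSS ran from 12.4 kb at RAB25 to 2090 kb at RAB6C. In 11 of the 23 it held no other coding TSS, a count not made for other genes without a peak.

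RAB5C, an early endosome GTPase, had the most other coding TSSs in its peak-free stretch among the 23 members without a promoter peak. No peak lay in the 469 kb of chr17:40202768-40671667, which contain the canonical TSS of 13 other coding genes, 6 of them CpG-rich: STAT3, STAT5A, STAT5B, CAVIN1, KCNH4 and ENSG00000267261. A stretch with 6 or more other CpG-rich coding promoters surrounded 1.58% of the other CpG-rich genes without a peak. The cut-off of 6 is RAB5C's own count, and its neighbours in this stretch were not left out of those genes. The share is therefore no independent background. PC-3 cells have been described as lacking the STAT3 gene through a deletion. Copy number was not measured here, so loss of the DNA and absence of a called peak cannot be told apart at RAB5C. RAB38, of melanosomes, lay alone in a stretch of 1320 kb.

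**Figure D5:**
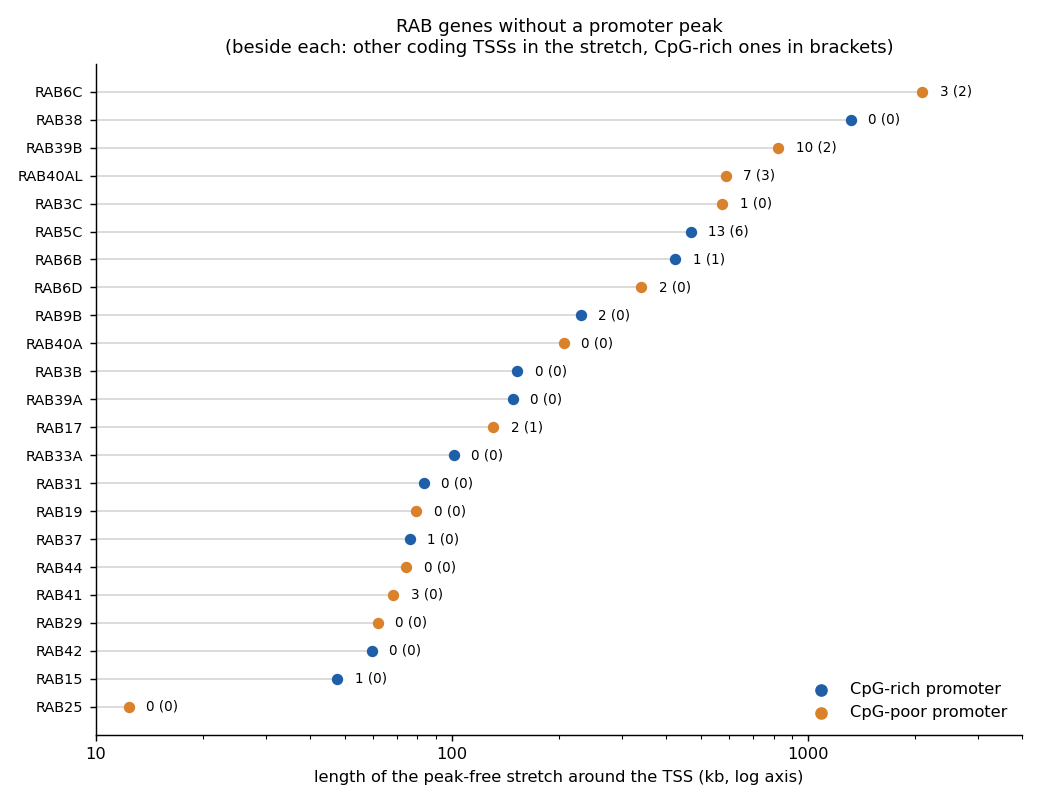
Length of the peak-free stretch around the TSS (kb, log axis) for the 23 RAB genes without a promoter peak, coloured by CpG class, with the number of other coding TSSs in it and, in brackets, the CpG-rich ones. RAB5C has the most neighbours, at 13 with 6 CpG-rich, and RAB25 the shortest stretch, at 12.4 kb.

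Across gene bodies, counted with the TSS, 43 of 63 RAB genes had a peak (68.3%), against a background of 61.2%. The same 43 had a peak at the promoter or in the body, against 61.5% over all genes. These were RAB6B, RAB31 and RAB37 plus the 40 with a promoter peak, which count here because their peaks cover the TSS. So 3 of 23 members without a promoter peak (13%) had one in the body, against 14.5% of all such genes. In the part of the body beyond 1 kb of the canonical TSS, 30 of 63 members had a peak (47.6%), against 43% over all genes. That count includes promoter peaks that reach past 1 kb. The RAB6B peak (score 170) lay 69916 bp downstream, at the end of the gene. The RAB31 peak (59.9) lay 34056 bp downstream. The RAB37 peak (164) lay 65292 bp upstream of the canonical TSS, within 1 kb of 3 alternative ones. In all, 64 peaks touched the members, 40 at promoters and 24 in bodies, and 15 of the 40 genes with a promoter peak had at least 1 more. The share with such a further peak was not computed over all genes.

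Of the 24 body peaks, 9 covered a coding TSS of another gene, 5 lay within 1 kb of an alternative TSS of the RAB gene, and 14 did neither. These counts were not made over the body peaks of all genes. RAB1A and RAB3D carried the most, 5 peaks each. In RAB1A the other 4 lay 48275 to 60609 bp downstream, the last of them over a TSS of CEP68, with a score of 531. In RAB3D 2 lay downstream and 2, almost adjoining, lay 4511 to 7715 bp upstream beside an alternative TSS, over TSSs of CCDC159 and TMEM205. RAB27A had a second peak at alternative TSSs over PIGB and PIGBOS1, and its score of 393 exceeded the 92.1 at the canonical TSS. A peak inside the long annotated span of RAB11A (score 141) covered a TSS of DENND4A, itself a RAB exchange factor. The second RAB40C peak (876, 5061 bp wide) reached WFIKKN1 at the 3′ end of the gene, and the second peaks of RAB1B, RAB5B and RAB8A, at scores of 217, 473 and 225, covered TSSs of CNIH2, SUOX and HSH2D.

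Genes that run the RAB cycle had promoter peaks at higher shares than the RAB genes, read against the same background of 55%. All 8 genes of the recycling machinery had one, among them CHM (the escort of newly made RABs) and RABGGTA (a subunit of the lipid transferase). Exchange factors, which load GTP, had a peak at 28 of 32, led by DENND3 (score 1202) and MADD (1079). GTPase-activating proteins had one at 29 of 35, led by TBC1D17 (2813) and TBC1D24 (2451), and effectors at 33 of 44, led by MLPH (2451), the melanophilin that links RAB27A to a myosin. Median scores were 516 for the recycling machinery, 317 for exchange factors, 422 for activating proteins and 413 for effectors, beside 361 for the RAB genes. Among CpG-rich promoters the counts were 5 of 5, 24 of 25, 25 of 30 and 27 of 34 in that order, beside 34 of 45 RAB genes and a background of 76.9%. In this class effectors (79.4%) and RAB genes (75.6%) were both near the background. No test was made of these differences.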

How the data were processed

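LSD1 ChIP and Input DNA of PC-3M-luc cells were sequenced, 1 library each. Per the labels' protocols, bowtie 2 placed the reads on hg19. MACS 1.41, Bowtie2, hg19 and mm10 appear in the submitters' processing notes. Mm10 is a mouse build, and the peaks were read here on hg19. That 0 peaks ran past a GRCh37 chromosome end does not by itself settle the build. Read on hg19, peaks lay at the promoters of 11088 of 20163 coding genes. The deposited list gives 20110 peaks with a score each; its comparison with Input, threshold, filters and read depth are not given in the sources used here. Precision per peak is therefore unknown. The gene models were GENCODE 44 on GRCh37, with the Ensembl canonical TSS, or the gene's 5′ end where none was tagged (282 genes, 0 members). The peak with the highest score stood for a promoter. Background counts cover all coding genes. The members, roles and gene lists were chosen with earlier results of these data known. Named were the 8 highest scores, CpG-rich members without and CpG-poor members with a peak, members with 3 or more peaks or a body peak alone, and divided paralog groups; the remaining members are given by score or by name. On simulated data 200 of 200 peaks planted over promoters were found, which checks the overlap code and not the detection of peaks. Software was matplotlib 3.10.9, numba 0.67.0, pysam 0.24.0, scipy 1.17.1, pandas 2.3.3 and numpy 2.4.6 under Python 3.11.15. Some items of the related gene lists are not reported here. Alternatives changed the peak set, window, overlap and TSS.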

Additional observations from a re-analysis of the deposited data

How the results depend on the processing

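No paired analysis was possible because each group had 1 library. Of 41 alternative values 40 stayed within the limits set and 1 moved. The limits were 1.5 times the count, the exact 95% binomial interval or the spread of scores. They are wide, and genes of 1 library are no replicates, so staying within them says little about reproducibility. On peaks scoring at least the list's median, the RAB share at CpG-rich promoters moved to 60% (27 of 45), beside 62% of other genes. That setting removed 9 members: RAB3A, RAB4A, RAB4B, RAB8B, RAB13, RAB20, RAB27A, RAB36 and RAB40B. A score of at least 100 removed RAB3A, RAB13 and RAB27A, the peak midpoint removed RAB24, RAB26 and RAB40C, and leaving out the widest 1% removed RAB26. A window of 5 kb added RAB25, and any annotated TSS added RAB37. The RAB count ran from 31 to 41, and the difference from other genes from 6.2 to 9.97 percentage points over the planned settings. On autosomes alone, a setting chosen after seeing the data, it was 13.7 points (69.6% against 55.9%), with 78.6% against 77.2% at CpG-rich promoters. Unknown depth limits every missing peak.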

Other observations

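Some other families of small GTPases also carried promoter peaks, read against the same background of 55%. ARF family genes, of coat recruitment, had one at 21 of 27 members (median score 573), and RAS family genes, of growth signalling, at 16 of 23 (566). The RAB genes, at 40 of 63 with a median score of 361, had the lowest share and the lowest median of these 3 families. At CpG-rich promoters the counts were 34 of 45 for RAB, 18 of 21 for ARF and 13 of 17 for RAS, against 76.9% over all CpG-rich promoters. In this class RAB (75.6%) and RAS (76.5%) both stood near the background. No test was made of these differences.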
